A study of Mus musculus with 8 samples.

Results

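The genes described here are 8 ATP-binding cassette (ABC) efflux transporters of the blood-brain barrier, chosen by name from the 54532 Ensembl genes of each table. They are the multidrug pumps Abcb1a, Abcb1b and Abcg2, the multidrug resistance-associated proteins Abcc1, Abcc4 and Abcc5, and the sterol exporters Abca1 and Abcg1. Each was matched to its Ensembl identifier by symbol, and all 8 were found. RNA was sequenced from primary brain microvascular endothelial cells (BMECs) of mice, which line the small vessels of the brain and were kept in culture. There were 4 libraries labelled Cavb3 KO, from mice deficient in Cavβ3, an auxiliary subunit of voltage-gated calcium channels, and 4 libraries labelled wild type (WT). Both groups of cells were kept in DMEM to which 20% calf serum, 100 ng/mL heparin and 10 ng/mL FGF, a fibroblast growth factor, had been added. The labels call the libraries independent biological replicates and give neither the age or strain of the mice nor the kind of deletion allele. Freshly isolated cells were not analysed here, so the values are levels in culture and not a change with culture.

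ABC transporters use ATP to move lipids, drugs and metabolites across membranes. At the blood-brain barrier P-glycoprotein and Abcg2 sit in the luminal membrane and return lipophilic compounds to the blood. Rodents encode P-glycoprotein in a pair of neighbouring genes where humans have the single gene ABCB1. In the mouse, Abcb1a is the form best known from brain capillaries and Abcb1b from organs such as the adrenal gland, and Abcb1b is known to rise when rat brain endothelial cells are cultured. Abcc proteins export organic anions and conjugates, while Abca1 and Abcg1 pass cholesterol to apolipoproteins and lipoprotein particles and are classical targets of the liver X receptors.

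Some facts about all libraries bear on what follows. The steps between FPKM values (fragments scaled for exon length and library size) implied depths of 23491644 to 33813072 fragments in the KO-labelled libraries and of 24946878 to 28475518 in the WT-labelled libraries. Cacnb3, which encodes Cavβ3, did not separate the labels: it had 1.70, 2.09, 2.47 and 1.77 FPKM in KO-labelled replicates 1 to 4, against 3.38, 3.56, 1.12 and 0.980 FPKM in WT-labelled replicates 1 to 4. Gene totals cannot show which exons a deletion had removed, so every direction between genotypes given here rests on the label alone. In both genotypes replicates 3 and 4 differed widely from replicates 1 and 2. Ddx3y, a gene on the Y chromosome, was listed at 0 in replicates 3 and 4 and had 6.98 to 9.48 FPKM in replicates 1 and 2. The labels name no batch, and these sets of replicates were recognised from the values themselves. Of the 16 brain endothelial markers 14 were expressed enough to be tested, among them Pecam1, Cdh5 and Cldn5. Slco1c1 and Mfsd2a, which mark brain endothelium in vivo, stayed below 1 FPKM in every library.

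Abcb1a was the most abundant of the 8 genes and Abca1 the least. FPKM is per exon length, here that of all annotated exons of a gene together, and levels between genes depend on that choice. This length was 5480 bases for Abcb1a, 7990 for Abcb1b and 15092 for Abcc1. The transcripts with the longest coding sequence have 4997, 4306 and 6792 bases in that order. Levels per transcript length were not computed, so the order below holds for FPKM only. Over all 8 libraries the mean was 40.6 FPKM for Abcb1a, 21.2 for Abcg1, 15.5 for Abcg2, 14.4 for Abcc5, 8.94 for Abcc4, 4.47 for Abcc1, 3.58 for Abcb1b and 0.937 for Abca1. The ranges over libraries overlapped between the neighbours Abcg1 and Abcg2, Abcg2 and Abcc5, and Abcc1 and Abcb1b. For the other 4 neighbouring pairs the higher gene was higher in all 8 libraries and the ranges did not overlap. Among the 53 ABC genes, Abcb1a ranked 3, behind Abcf2 at 107 FPKM and level with Abcf1 at 40.6 FPKM, which act in translation and its control and carry no membrane domain. Among the 11864 genes that reached 1 FPKM in at least 4 libraries, Abcb1a stood at percentile 89.7 and Abcb1b at percentile 30.6. Of the 8 transporters 7 passed this minimum, and Abca1 did not.

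**Figure D1:**
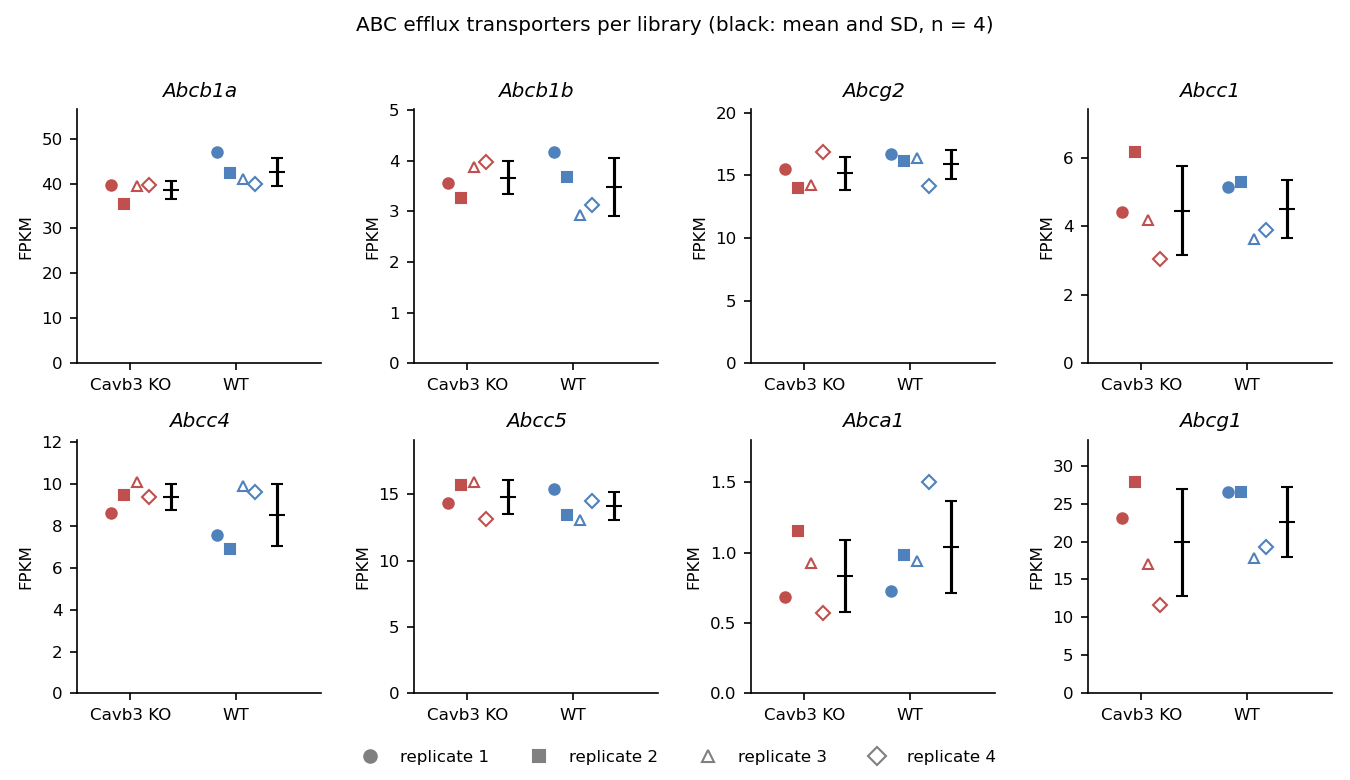
FPKM of each transporter in every library, with libraries labelled Cavb3 KO in red and WT in blue, replicates 1 and 2 filled and 3 and 4 open, and black bars for mean and SD (n = 4). Abcb1a lies between 35.4 and 47.1 FPKM, while for Abcg1 and Abcc1 the open symbols lie below all filled ones.

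No transporter passed the genotype test. In that comparison, libraries labelled Cavb3 KO against WT, limma on log2(FPKM + 1) with Benjamini-Hochberg adjustment called 0 of 11864 genes (0%) at an adjusted p of 0.05. The test gave 647 genes at an unadjusted p under 0.05, and limma-voom on recovered reads called 0 with 658 at that level. The 7 tested transporters had a median difference of -0.03 on that scale, with 3 positive and 4 negative, beside a median of -0.02 over all tested genes. With the replicate set as a term in the fit, 75 genes were called (0.632%), and none of the 7 transporters was among them. That count was 322 without KO-labelled replicate 3 and 80 without KO-labelled replicate 4, and 0 without any 1 of the other 6 libraries. None of the calls from it named below therefore held when any 1 of those 6 libraries was left out. A missed threshold does not show equal levels, so each gene is given below with its interval. The genotype intervals come from the fit without the set, which counts differences between the replicate sets as residual spread. With the set as a term the differences are the same and the intervals narrower. For Abcg1 that interval was -0.51 to 0.07 (limma adjusted p = 0.387) and for Abcb1a -0.30 to 0.02 (limma adjusted p = 0.312).

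Abcb1a and Abcb1b, the genes of P-glycoprotein, lie side by side on the plus strand of chromosome 5 (GRCm38, GENCODE M21). Abcb1a (ENSMUSG00000040584) spans 8660077 to 8748575 and Abcb1b (ENSMUSG00000028970) spans 8798147 to 8866315. Their coding sequences are 3828 bases each, and 88.1% of the aligned bases are the same, with 455 mismatches and a longest identical run of 338 bases. Against the neighbouring bile phospholipid transporter gene Abcb4 the identity is 76.0% for Abcb1a and 74.6% for Abcb1b. The stretches below show why short reads can or cannot separate the pair: the first is shared letter for letter, and the second is the most different one of that length without a gap, with its 25 differing bases in capitals. Positions count from the first coding base.
Abcb1a, coding bases 1496 to 1555: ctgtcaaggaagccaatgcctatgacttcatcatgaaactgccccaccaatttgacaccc
Abcb1b, coding bases 1505 to 1564: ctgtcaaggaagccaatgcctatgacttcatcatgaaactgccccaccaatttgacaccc
Abcb1a, coding bases 1913 to 1972: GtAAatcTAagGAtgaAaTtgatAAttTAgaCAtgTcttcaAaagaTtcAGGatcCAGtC
Abcb1b, coding bases 1922 to 1981: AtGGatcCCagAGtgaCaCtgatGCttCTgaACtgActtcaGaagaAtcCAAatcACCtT

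Across the whole transcript, 15.5% of the 50-base windows of Abcb1a occurred unchanged in Abcb1b, and 18.0% of those of Abcb1b in Abcb1a. At 150 bases these shares were 4.41% and 5.15%. The other 6 transporters shared no window of 50, 100 or 150 bases with any other gene. The sources used here give neither read length nor how reads that match both genes were assigned. Under even coverage the 50-base share would amount to 791 to 1091 Abcb1a fragments per library and the 150-base share to 225 to 310, beside 647 to 910 fragments counted on Abcb1b. At short read length the assignment of shared reads could therefore change the level of Abcb1b by as much as that level itself, and with it the ratio of the pair. Use of strand is not given either. Exons of the antisense gene Gm42686 cover 553 of the 5480 exon bases of Abcb1a, and those of Gm5106 cover 143 of the 7990 exon bases of Abcb1b. These antisense genes had at most 0.171 and 0.862 FPKM in any library.

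The promoters of the pair are shown because the genes are neighbours with unlike levels. RefSeq windows of 250 bases before the transcription start were found for 6 of the 8 transporters and not for Abcc1 and Abcg1. Both strands were searched for the GC box GGGCGG, the CCAAT box, the TATA box TATAAA, the xenobiotic response core GCGTG, the antioxidant response core TGACNNNGC, the TCF/LEF core CTTTGA and the E-box CACGTG. Capitals mark matches on either strand. The Abcb1a window precedes the RefSeq start, which lies upstream of the GENCODE start given above. It ends at 8567090, far from the start at 8660077 of the gene whose exons were counted. The Abcb1b window ends at 8798146 and adjoins its gene start at 8798147, so the windows are not placed alike.
Abcb1a, chr5:8566841-8567090, plus strand, GRCm38.p6: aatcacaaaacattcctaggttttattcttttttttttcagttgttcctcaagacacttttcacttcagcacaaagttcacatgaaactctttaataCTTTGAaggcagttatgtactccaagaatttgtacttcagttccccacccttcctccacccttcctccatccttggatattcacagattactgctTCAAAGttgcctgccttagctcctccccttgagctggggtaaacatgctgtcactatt
Abcb1b, chr5:8797897-8798146, plus strand, GRCm38.p6: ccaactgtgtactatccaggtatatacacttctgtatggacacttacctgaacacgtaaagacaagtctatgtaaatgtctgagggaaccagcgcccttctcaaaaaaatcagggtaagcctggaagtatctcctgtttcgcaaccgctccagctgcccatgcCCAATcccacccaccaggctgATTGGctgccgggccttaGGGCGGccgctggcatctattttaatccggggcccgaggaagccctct
The Abcb1a window held 2 TCF/LEF cores and none of the other motifs, at a GC content of 40.4%. The Abcb1b window held 2 CCAAT boxes and 1 GC box, at a GC content of 52.8%. Of all 32851 RefSeq promoter windows of that length, 13.8% held CTTTGA, 33.8% held CCAAT and 32.7% held GGGCGG. A match is a run of letters and was not tested as a binding site.

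Abcb1a had 39.7, 35.4, 39.4 and 39.6 FPKM in KO-labelled replicates 1 to 4, against 47.1, 42.4, 41.0 and 39.9 FPKM in WT-labelled replicates 1 to 4. The groups did not overlap, with all KO-labelled libraries lower, although the highest of them and the lowest WT-labelled library were 39.7 and 39.9 FPKM. Of all tested genes 4.14% had groups without overlap, 1.64% with the KO-labelled libraries higher and 2.5% with them lower. The means were 38.5 ± 2.07 FPKM in KO-labelled and 42.6 ± 3.17 FPKM in WT-labelled libraries (SD, n = 4 each). The log2(FPKM + 1) difference was -0.14 (95% confidence interval -0.32 to 0.04, limma adjusted p = 0.902). It was -0.03 within replicates 3 and 4 and -0.25 within replicates 1 and 2, and the difference between these values did not pass (0.21, adjusted p = 0.877). These values rest on 5098 to 7029 recovered fragments per library.

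Abcb1b had 3.57, 3.26, 3.88 and 3.97 FPKM in KO-labelled libraries, against 4.18, 3.69, 2.94 and 3.12 FPKM in WT-labelled libraries, in replicate order. The groups overlapped, and the WT-labelled libraries gave both the highest and the lowest value. The overall log2 difference was 0.06 (95% confidence interval -0.19 to 0.32, limma adjusted p = 0.973). Within replicates 3 and 4 both KO-labelled libraries were higher, by 0.29, and within replicates 1 and 2 both were lower than both WT-labelled ones, with a difference of -0.16. The test of that change in the genotype difference between sets gave 0.45 (95% confidence interval 0.12 to 0.78), at an unadjusted p of 0.0145 and a limma adjusted p of 0.614. That test called 1 of 11864 genes (0.00843%), and Abcb1b was not called. Recovered fragments on Abcb1b numbered 647 to 910 per library.

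The balance of the pair lay on the side of Abcb1a in every library. The size of the ratio depends on the exon lengths used, 5480 bases for Abcb1a and 7990 for Abcb1b. Its comparison between libraries does not. The ratio of Abcb1a FPKM to Abcb1b FPKM was 11.1, 10.9, 10.2 and 9.98 in KO-labelled replicates 1 to 4, against 11.3, 11.5, 14.0 and 12.8 in WT-labelled replicates 1 to 4. All 4 KO-labelled libraries were below all 4 WT-labelled ones. The share of other gene pairs with ratios separated in this way was not computed, so how common it is remains unknown. The mean ratio was 10.5 ± 0.549 in KO-labelled and 12.4 ± 1.25 in WT-labelled libraries (SD, n = 4 each). Abcb1b thus made up 8.69 ± 0.413% of the summed FPKM of the pair in KO-labelled libraries and 7.52 ± 0.684% in WT-labelled libraries. The sum itself was 42.2 ± 2.35 FPKM in KO-labelled and 46.1 ± 3.70 FPKM in WT-labelled libraries, and these ranges overlapped.

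The difference in mean log2 ratio was -0.23, with a two-sided exact permutation p of 0.0286, the smallest that 70 splits can give. It came mainly from replicates 3 and 4, where it was -0.41, against -0.05 in replicates 1 and 2; the difference between these values was not tested. In replicate 3 the exact 95% interval of the ratio was 9.40 to 11.0 in the KO-labelled library, against 12.9 to 15.1 in the WT-labelled library. In replicate 2 the intervals were 10.1 to 11.7 in the KO-labelled library, against 10.7 to 12.4 in the WT-labelled library, and so overlapped. When only splits within the replicate sets were allowed, p was 0.0556, and when the replicate block was kept (sign flips of 4 differences) it was 0.125, in each case the smallest possible. Without WT-labelled replicate 3 the difference was -0.17, with an exact permutation p of 0.0571, and p also exceeded 0.05 without any 1 of the KO-labelled libraries. The intervals cover counting error only and not the assignment of reads that match both genes. Between replicates 3 and 4 and replicates 1 and 2 the balance differed by 0.05 on the log2 scale (exact permutation p = 0.629).

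**Figure D2:**
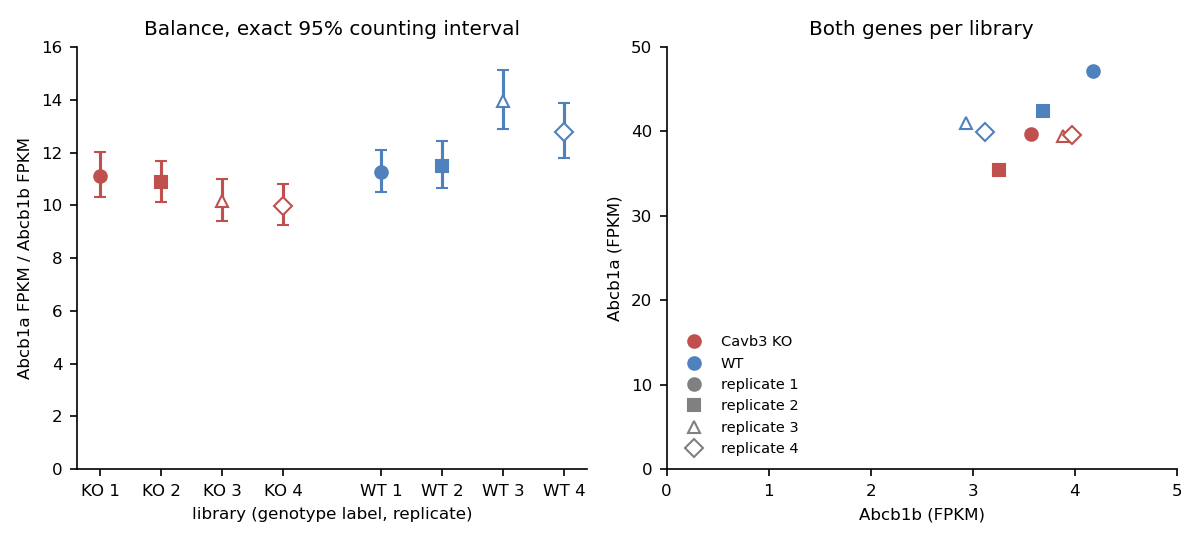
Left, the ratio of Abcb1a to Abcb1b FPKM in each library with its exact 95% counting interval, KO-labelled libraries in red and WT-labelled in blue; right, both FPKM values per library. The ratios run from 9.98 to 11.1 in KO-labelled and from 11.3 to 14.0 in WT-labelled libraries, and the intervals separate in replicates 3 and 4.

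No cell type marker was called between the labels without the set as a term. All 14 tested brain endothelial markers had a negative log2 difference, from Cldn5 (-0.99) to Vwf (-0.04), and 3 of them had groups without overlap. Of all tested genes 55.8% had a negative difference and 4.14% had groups without overlap. With the set as a term 1 was called, Esam, an adhesion molecule of endothelial junctions, which was lower (limma adjusted p = 0.0404). That fit called 0.261% of all tested genes higher and 0.371% lower. The list summed to 1845 to 2254 FPKM in KO-labelled and 2113 to 2876 FPKM in WT-labelled libraries, and these ranges overlapped. The 8 choroid plexus and ependyma markers summed to 85.1 to 217 FPKM in KO-labelled and 50.9 to 70.7 FPKM in WT-labelled libraries. Of these markers 4 were tested, and 2 had a positive and 2 a negative log2 difference, from Clic6 (-0.43) to Aqp1 (1.48). Groups did not overlap for 3 of these 4, as for 4.14% of all tested genes. With the set as a term Krt19 was called higher and Clic6 lower (limma adjusted p = 0.0404 for each). Esam and Krt19 are named after their values were seen. Most of the choroid plexus sum was Krt19 and Aqp1, while the defining marker Ttr was at 0 in 6 libraries and at most 0.0692 FPKM in the others. In bulk RNA fewer cells of a type and less RNA per cell cannot be told apart, and the part of these markers in the Abcb1a values and in the balance was not tested.

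Abcg2, the breast cancer resistance protein, had 15.5, 14.0, 14.3 and 16.9 FPKM in KO-labelled replicates 1 to 4, against 16.7, 16.2, 16.4 and 14.2 FPKM in WT-labelled replicates 1 to 4. The groups overlapped, and the highest and the lowest library were both KO-labelled. The log2 difference was -0.06 (95% confidence interval -0.26 to 0.13, limma adjusted p = 0.962). Between the replicate sets it was -0.02 (95% confidence interval -0.20 to 0.17, adjusted p = 0.878). Abcg2 thus exceeded Abcb1b and stayed below Abcb1a in every library. Its gene (ENSMUSG00000029802) lies on the plus strand of chromosome 6, 58584523 to 58695676.

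The sets of replicates separated some transporters where the genotype labels did not. Replicates 3 and 4 against 1 and 2, with genotype in the fit, gave 5419 called genes of 11864 (45.7%), 19.8% higher and 25.8% lower in replicates 3 and 4. Of the 7 tested transporters 1 was higher (Abcc4), 2 were lower (Abcc1 and Abcg1) and 4 were not called. Their share is near that of all genes, and their median of -0.06 is near the -0.04 of all genes. Centring each library on its median gave 2699 higher and 2602 lower calls, against 2354 and 3065 without it. The sets were drawn from these values, so the p-values describe how far each gene follows a split already seen.

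**Figure D3:**
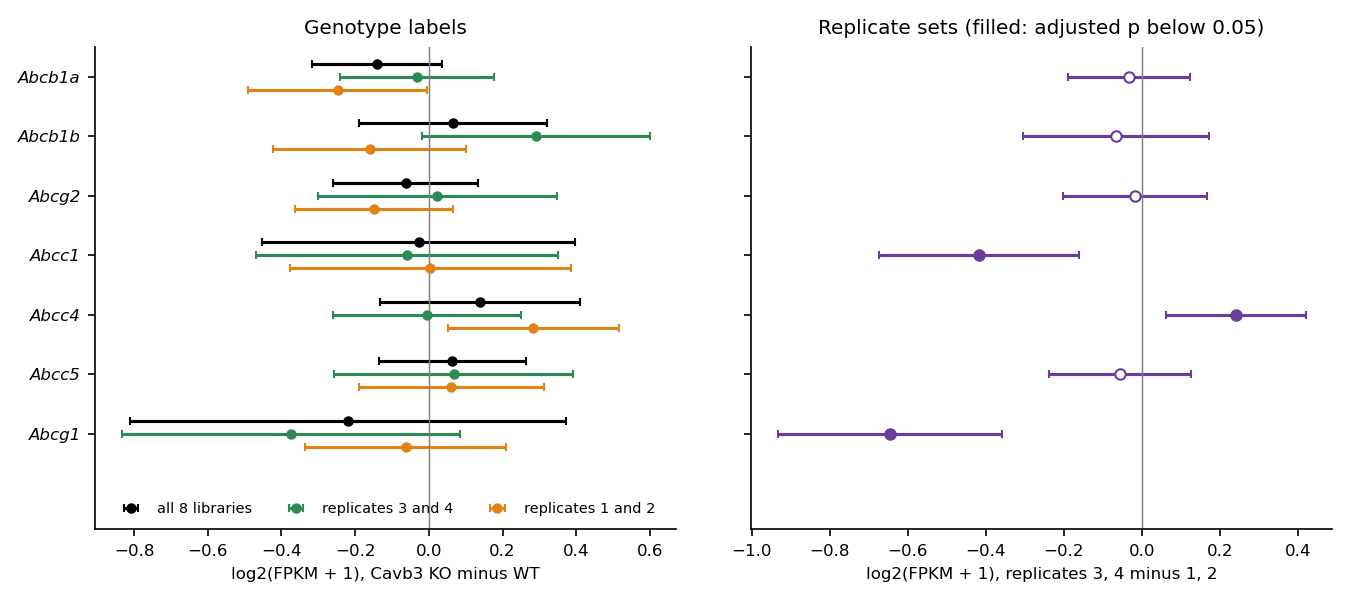
Differences in log2(FPKM + 1) with 95% confidence intervals, left for libraries labelled Cavb3 KO minus WT in all 8 libraries and within each replicate set, right for replicates 3 and 4 minus replicates 1 and 2. On the right Abcc4 lies at 0.24, Abcc1 at -0.42 and Abcg1 at -0.65, and the other 4 genes have intervals that include 0.

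Abcc1, which exports glutathione conjugates and leukotriene C4, had 4.42, 6.17, 4.17 and 3.04 FPKM in KO-labelled libraries, against 5.15, 5.29, 3.63 and 3.89 FPKM in WT-labelled libraries, in replicate order. Replicates 3 and 4 of both genotypes lay below replicates 1 and 2 of both, as they did in 22.8% of all tested genes. The means were 3.68 ± 0.481 FPKM in replicates 3 and 4 and 5.26 ± 0.718 FPKM in replicates 1 and 2 (SD, n = 4 each). On the log2 scale Abcc1 fell by 0.42 ± 0.11 (SE) in replicates 3 and 4 (limma adjusted p = 0.0174), and without the filter on low values the adjusted p was 0.0582. The genotype difference was -0.03 (95% confidence interval -0.45 to 0.40, adjusted p = 0.994), and its sign changed with the scaling. Abcc1 (ENSMUSG00000023088) lies on the plus strand of chromosome 16, 14361558 to 14475737.

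Abcc4, which exports cyclic nucleotides, prostaglandins and nucleotide analogues, had 8.62, 9.45, 10.1 and 9.35 FPKM in KO-labelled libraries, against 7.58, 6.90, 9.88 and 9.63 FPKM in WT-labelled libraries. The groups overlapped, and the lowest values were those of WT-labelled replicates 1 and 2. The genotype difference was 0.14 (95% confidence interval -0.13 to 0.41, limma adjusted p = 0.931). It was -0.0049 within replicates 3 and 4 and 0.28 within replicates 1 and 2, and the change between sets did not pass (-0.29, adjusted p = 0.824). In replicates 3 and 4 Abcc4 rose by 0.24 ± 0.08 (SE) on the log2 scale (adjusted p = 0.0360), with 9.74 ± 0.317 FPKM there and 8.14 ± 1.12 FPKM in replicates 1 and 2 (SD, n = 4 each), and the sets overlapped. That call did not hold without the filter on low values (adjusted p = 0.0972), nor without any 1 of 6 of the libraries, all but KO-labelled replicates 2 and 4. Abcc4 (ENSMUSG00000032849) lies on the minus strand of chromosome 14, 118482692 to 118706219.

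Abcc5, an exporter of cyclic nucleotides and nucleotide analogues, varied little. It had 14.4, 15.7, 15.9 and 13.1 FPKM in KO-labelled libraries, against 15.3, 13.4, 13.0 and 14.5 FPKM in WT-labelled libraries. Both groups covered nearly the same range. The genotype difference was 0.06 (95% confidence interval -0.14 to 0.26, limma adjusted p = 0.962) and the set difference -0.06 (95% confidence interval -0.24 to 0.13, adjusted p = 0.590). Abcc5 (ENSMUSG00000022822) lies on the minus strand of chromosome 16, 20331303 to 20426394.

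Abcg1, which passes cholesterol to lipoprotein particles, moved most between the replicate sets. It had 23.0, 27.8, 17.0 and 11.7 FPKM in KO-labelled libraries, against 26.5, 26.5, 17.9 and 19.3 FPKM in WT-labelled libraries, in replicate order. All of replicates 3 and 4 lay below all of replicates 1 and 2, as in 22.8% of all tested genes, and KO-labelled replicate 4 was the lowest. The means were 16.5 ± 3.34 FPKM in replicates 3 and 4 and 26.0 ± 2.05 FPKM in replicates 1 and 2 (SD, n = 4 each), a ratio of 0.634. On the log2 scale Abcg1 fell by 0.65 ± 0.12 (SE) in replicates 3 and 4 (limma adjusted p = 0.00506), and it stayed called without any 1 library (adjusted p of 0.00300 to 0.0165). The genotype difference was -0.22 (95% confidence interval -0.81 to 0.37, adjusted p = 0.955). In the fit without the set it depended on single libraries, at -1.5e-05 without KO-labelled replicate 4 and -0.40 without KO-labelled replicate 2. Leaving out 1 KO-labelled library also makes the replicate sets unequal between the labels. With the set as a term the difference stayed negative, at -0.086 and -0.30 without these libraries in the same order. Abcg1 (ENSMUSG00000024030) lies on the plus strand of chromosome 17, 31057675 to 31117988.

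Abca1, which loads cholesterol onto lipid-poor apolipoprotein A-I, was low in all libraries. It had 0.686, 1.15, 0.928 and 0.571 FPKM in KO-labelled libraries, against 0.730, 0.986, 0.942 and 1.50 FPKM in WT-labelled libraries, on 139 to 404 recovered fragments. The groups overlapped, and the ranges of the replicate sets overlapped too. Without the filter on low values the genotype difference was -0.15 (95% confidence interval -0.51 to 0.21, limma adjusted p = 0.903). The set difference was then 0.06 (95% confidence interval -0.30 to 0.42, adjusted p = 0.797), in a test that called 13.5% of genes. Abca1 (ENSMUSG00000015243) lies on the minus strand of chromosome 4, 53030787 to 53159895.

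Genes of sterol sensing and efflux around Abca1 and Abcg1 were called in both directions between the replicate sets. Of 25 listed genes 21 were tested, and 4 rose and 9 fell in replicates 3 and 4, where 19.8% of all tested genes were called higher and 25.8% lower. The median was -0.16, beside -0.04 over all tested genes. The genes named next were chosen after their values were seen. Apoe, an apolipoprotein that accepts cholesterol, averaged 761 ± 93.6 FPKM in replicates 3 and 4 and 278 ± 35.6 FPKM in replicates 1 and 2 (log2 difference 1.45, limma adjusted p = 0.000377). Mylip, a ubiquitin ligase of sterol homeostasis, rose by 1.25 (adjusted p = 0.000422), and the liver X receptor genes Nr1h2 and Nr1h3 rose by 0.54 and 0.41. Ch25h, which makes 25-hydroxycholesterol, fell by 1.61 (adjusted p = 0.00127). Liver X receptor targets thus included risen genes (Apoe, Mylip) and fallen ones (Abcg1, Srebf1 and Arl4c, the last 2 by 0.41 and 0.49). No gene of the list was called between genotypes, where Pltp had the lowest difference (-0.38) and Lrp1 the highest (0.58).

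**Figure D4:**
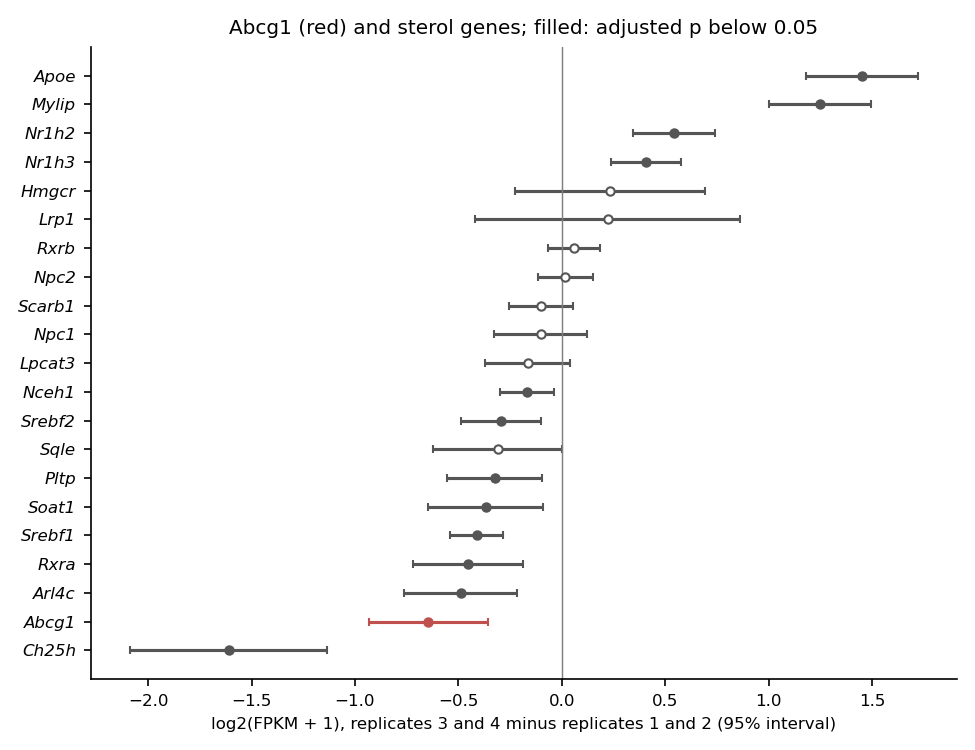
Differences in log2(FPKM + 1) between replicates 3 and 4 and replicates 1 and 2 for Abcg1 (red) and 20 of the tested sterol genes, with 95% confidence intervals and filled points for an adjusted p below 0.05. Apoe lies highest at 1.45 and Ch25h lowest at -1.61, with Abcg1 at -0.65 among the genes that fell.

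Cell type markers were compared between the sets as well. The 11 pericyte and smooth muscle markers summed to 4.49 to 7.48 FPKM in replicates 3 and 4 and to 8.95 to 25.0 FPKM in replicates 1 and 2, where Acta2 made up most of the sum. Kcnj8, which defines pericytes, was at 0 in 7 libraries, and Abcc9, an ABC gene of pericytes, stayed at or below 0.0559 FPKM. The 10 microglia and macrophage markers, of a cell type rich in Abca1 and Abcg1, summed to 24.4 to 28.6 FPKM in replicates 3 and 4 and to 23.0 to 29.5 FPKM in replicates 1 and 2. Brain endothelial markers summed to 1845 to 2241 FPKM in replicates 3 and 4 and to 2233 to 2876 FPKM in replicates 1 and 2, with 2 of 14 called higher and 6 lower, beside 19.8% and 25.8% of all tested genes. The part of these markers in the Abcc1, Abcc4 and Abcg1 values was not tested.

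Beyond the 8 transporters, 18 of 45 other ABC genes were tested, none was called by genotype, and their median difference was -0.10. The most abundant were Abcf2, Abcf1, Abce1, Abca3 and Abcf3, at means of 107, 40.6, 24.9, 21.8 and 20.1 FPKM. All but Abca3, a phospholipid transporter of lamellar bodies, belong to the ABCE and ABCF families, which lack membrane domains. Groups did not overlap, as in 4.14% of all tested genes, for Abca3, at 20.3 ± 1.73 FPKM in KO-labelled and 23.3 ± 0.759 FPKM in WT-labelled libraries, nor for the antigen peptide transporter gene Tap2, at 7.28 ± 0.793 FPKM in KO-labelled and 9.12 ± 1.30 FPKM in WT-labelled libraries (SD, n = 4 each). The untested Abca13 did not overlap either and was higher, at 0.111 ± 0.0280 FPKM in KO-labelled and 0.0339 ± 0.0257 FPKM in WT-labelled libraries (SD, n = 4 each). It is named after its values were seen and rests on 40 to 70 fragments in KO-labelled and 4 to 31 in WT-labelled libraries. Without the filter on low values Abca13 was not called (limma adjusted p = 0.903). The share of untested genes without overlap was not computed. Tap2 had the lowest log2 difference (-0.29) and Abcd4, a lysosomal cobalamin transporter, the highest (0.22). Between the replicate sets Abcd4 and Abcf2 were higher in replicates 3 and 4, and Abca7, Abcb10, Abcd3, Abcf3 and Tap2 were among those lower. The counts were 2 higher, 6 lower and 10 not called, a share near the 45.7% called among all tested genes. Of the 45 genes 27 had a mean below 1 FPKM.

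**Figure D5:**
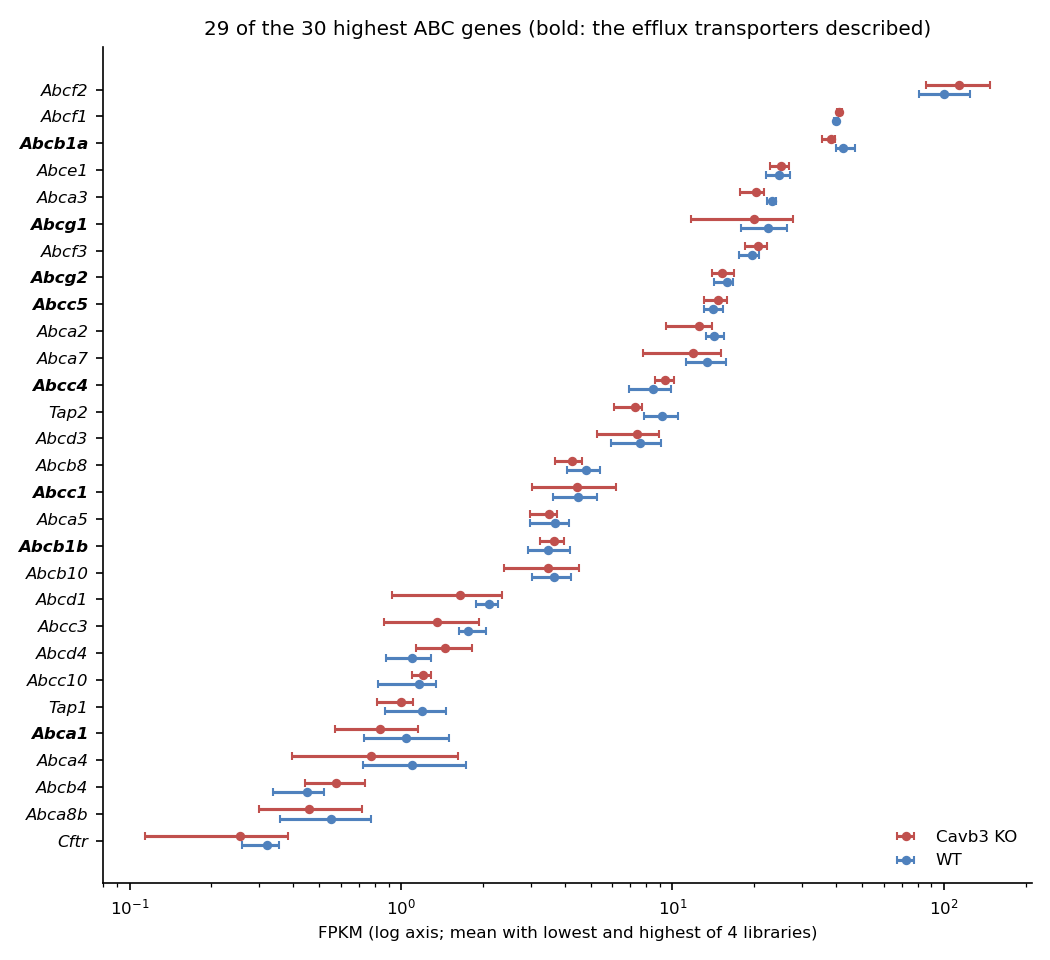
Mean FPKM with the lowest and highest library for 29 of the 30 highest ABC genes on a log axis, KO-labelled libraries in red above WT-labelled in blue, with the 8 transporters in bold. Abcb1a is at 38.5 FPKM in KO-labelled and 42.6 FPKM in WT-labelled libraries, and Abcb1b is lower, at 3.67 FPKM in KO-labelled and 3.48 FPKM in WT-labelled libraries.

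Regulators and partners of the pumps gave no genotype call without the set as a term. Of 28 genes of xenobiotic sensing and pump transcription 16 were tested, with a median difference of -0.05. Tiparp, a target of the aryl hydrocarbon receptor, was lowest (-0.27) and Hif1a, the hypoxia factor, highest (0.15). The drug-sensing receptor genes Nr1i2 and Nr1i3 averaged below 1 FPKM, at 0.0949 and 0.0351 FPKM in KO-labelled and 0.0708 and 0.0270 FPKM in WT-labelled libraries. Of 18 scaffold and trafficking genes 15 were tested, from Cav1 (-0.67) to the kinase gene Pim1 (0.14). Cav1, the caveolin found with P-glycoprotein in caveolae, had 121, 150, 92.3 and 70.5 FPKM in KO-labelled libraries, against 214, 223, 128 and 127 FPKM in WT-labelled libraries. The groups overlapped, but within each replicate set both KO-labelled libraries were lower than both WT-labelled ones. Cav1 was called with the set as a term (limma adjusted p = 0.0404) but not without it (0.875).

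Of 20 genes of glutathione conjugation, which makes substrates for Abcc1, 15 were tested, with a median of -0.13. Mgst1, a microsomal glutathione transferase, was lowest at -0.50 and was called with the set as a term (adjusted p = 0.0477), while the quinone reductase gene Nqo1 was highest at 0.20. Of 12 uptake carriers 4 were tested, with a median of -0.25, from the glucose transporter gene Slc2a1 (-0.40) to the lactate transporter gene Slc16a1 (-0.03). The organic anion uptake carriers Slco1a4 and Slco1c1, typical of brain capillaries, stayed below 1 FPKM. Between the replicate sets the counts higher and lower in replicates 3 and 4 were 1 and 4 for xenobiotic genes, 3 and 4 for scaffold genes, 2 and 7 for glutathione genes and 1 and 2 for uptake carriers, beside 19.8% and 25.8% of all tested genes.

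The genes whose levels ran most like those of 4 transporters were sought among 7139 tested genes with a mean of at least 5 FPKM. These correlations of log2(FPKM + 1) over 8 libraries are descriptions, since the libraries share the sets and genotype labels. For Abcb1a they were Mrpl44, Klhl4 and Trpv2 (Pearson r of 0.974, 0.967 and 0.965), and for Abcb1b they were Tomm70a, Vps26b and Gm21887 (0.930, 0.917 and 0.915). Abcg2 ran closest to Atf4 and Tspan6 (0.963 and 0.962). For Abcg1 they were Gpc4, Ptpn14 and Cops6 (0.994, 0.994 and 0.993), which were all lower in replicates 3 and 4 too.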

How the data were processed

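The authors deposited gene-level FPKM in a table for each library. HISAT2 2.0.5 is named in the submitters' processing notes. How fragments were counted, on which annotation and build, is not stated in the sources used here. FPKM multiplied by GENCODE M21 exon length gave whole multiples of 1 constant per library for 96.5% to 96.8% of values above 0 (tolerance 0.01), from which depth and fragments per gene were recovered. Symbols were found for 54409 of 54532 identifiers. Genes at 1 FPKM or more in 4 or more libraries were tested with limma 3.58.1 (R 4.3.3) on log2(FPKM + 1), with trend and robust moderation, without covariates for genotype and with genotype as a covariate for the replicate sets, and adjusted p-values run over all 11864 of them. Differences on this scale understate changes of low genes. The transporters, gene lists and replicate sets were chosen with earlier results of these data known.

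All 8 transporters are named. Other lists give genes called by genotype, otherwise the lowest and highest difference and, for ABC genes, the 5 highest means, and for 4 transporters the 3 most correlated genes; a few of these genes are not reported here. Ratios were compared by exact two-sided permutation tests, and their intervals are exact binomial ones covering counting error only. Deviations from the group mean correlated between libraries of the same number (r = 0.411, 0.754, 0.405 and 0.516 over 11864 genes). KO-labelled replicates 1 to 4 correlated with the other WT-labelled number of their set at r = 0.688, 0.412, 0.571 and 0.701. These values follow the set and do not show that the numbers are pairs, so the replicate block is given as an alternative only. The fits were tested on simulated data that held no difference between replicate sets, unlike these libraries, so that test does not cover such a difference. Figures used Python 3.11.15 and matplotlib 3.10.9. The limma p-values weigh a mean difference against the moderated spread between these libraries. The exact permutation p-values rank the observed difference among all allowed splits or sign flips.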

Additional observations from a re-analysis of the deposited data

Results flagged for a closer look

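Of 18 groups of 4 libraries checked (the 8 transporters and the Abcb1a to Abcb1b ratio in each genotype), 1 had a library far from the others. Abcb1a in KO-labelled replicate 2 was at 35.4 FPKM, below 39.4 to 39.7 FPKM in the other KO-labelled libraries, a gap of 0.945 of the group's range, above Dixon's 95% critical value. Chance alone flags about 1 in 20 such groups. Without that library the Abcb1a difference stayed below 0 and was not called.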

How the results depend on the processing

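The count of genes called between genotypes was 0 in the main fit and 0 with the replicate block, but 75 with the replicate set as a term and 6 in replicates 3 and 4 alone. Leaving out 1 library gave 0 to 0 without the set term and 0 to 322 with it (an alternative added after the data were seen), with 322 without KO-labelled replicate 3 and 80 without KO-labelled replicate 4. The set comparison called 3530 of the 7227 genes tested with a filter at FPKM 5, against 5419 of 11864 with the filter at 1, and 3901 to 5518 without 1 library. The test between sets called 2 genes under limma-voom and with a pseudocount of 0.1, and 1 to 58 without 1 library, with 58 without WT-labelled replicate 2.

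Signs of small uncalled genotype differences turned in these cases: Abcb1b to -0.16 in replicates 1 and 2 alone, Abcg2 to 0.023 and Abcc4 to -0.0049 in replicates 3 and 4 alone, and Abcc1 to 0.0017 with median centring, 0.0037 in replicates 1 and 2 alone and 0.030 with limma-voom. Without 1 library Abcc1 ran from -0.17 to 0.11, and with the set term it turned to 0.047 without KO-labelled replicate 1 and 0.050 without KO-labelled replicate 4. Between sets, Abcb1a turned to 0.010 with median centring and ran from -0.087 to 0.018 without 1 library. Abcb1b ran from -0.13 to 0.0079, and Abcg2 turned to 0.014 with quantile normalization and 0.026 with median centring and ran from -0.080 to 0.039. For the Abcb1a to Abcb1b difference of -0.23, the replicate block and the splits within sets can change p only. The exact permutation p was 0.125 and 0.0556 there. The difference ran from -0.27 to -0.17 without 1 library, while by set it ran from -0.037 to 0.12, below 0 without WT-labelled replicate 3. In all, 263 other values kept direction and call. Some of these could not change direction, since the filter, the trend, the set term and the replicate block leave the genotype difference itself unchanged. The causes were not tested. The 647 to 910 fragments on Abcb1b limit the precision of the ratio.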
